A study of Ovis aries with 16 samples.

Results

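Insulin-like growth factor binding proteins (IGFBPs) were measured in the fetal sheep left ventricle by 4 array probes, 2 for IGFBP2 and 2 for IGFBP5, out of 15008 probes. The array names 871 genes here, of which these are 2. They were all the non-control probes that the array's own gene name, accession or description assigns to these 2 genes. IGFBP2 was taken up because its probe starting at base 1307 of the target passed the test with losartan in earlier results on these same arrays (adjusted p = 0.0263, limma). The losartan contrast was among those that led to this choice, so the angiotensin II values of IGFBP2 may not be free of it. IGFBP2 was thus selected at least in part on its losartan values. These values, and every difference between treatments that contains them, are therefore given as a description, and IGFBP5 is set beside it in the same way.

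IGFBPs are secreted proteins that carry the insulin-like growth factors IGF1 and IGF2. They lengthen the life of these growth factors outside the cell and either hold them away from the type 1 receptor, IGF1R, or release them near it, often after a protease has cut the carrier. IGFBP2 is abundant in fetal tissues and also binds integrins, and IGFBP5 binds to extracellular matrix and is made by smooth muscle, fibroblasts and bone cells among others.

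The study used 16 fetuses from 8 twin pregnancies, with 1 array of 1 colour per fetus. Catheters were placed in the treated fetuses at 125 to 126 days of a 145-day gestation, and hearts were taken after 5 days of treatment. In twin sets 1 to 4, 1 fetus received losartan, which blocks the AT1 receptor for angiotensin II, and in sets 5 to 8, 1 fetus received angiotensin II, the peptide that activates this receptor. The other fetus of each set had no infusion, so 4 groups of 4 fetuses were compared: losartan, its untreated twins, angiotensin II, and its untreated twins. Breed, sex and genotype were not used here. The labels differ on the infusions, called daily in some fields and continuous in others, or on whether the septum was taken with the free wall. The sample was whole tissue, so fewer cells of a type and less RNA per cell cannot be told apart.

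Values are log2 processed signal minus the log2 of the 75th percentile of the array (1101 to 1672 fluorescence units). On an array 8598 to 9615 probes were well above background. In a principal component analysis 3 arrays stood apart, those of the untreated twin of set 2 and the angiotensin II fetuses of sets 7 and 8, with scores of 30.1 to 39.8 against -18.9 to -0.46 on the other 13. All 3 lay on slide 2 and in the same array row, and their bright control corner spots had log2 signals of 17.2 to 17.7 against 14.4 to 15.4 elsewhere. Each slide held 8 arrays. Slide 1 held 1 losartan fetus and 3 of the untreated twins of that arm, and slide 2 held 3 and 1; the angiotensin II arm had 2 treated and 2 untreated fetuses on each slide. Both arrays of sets 3 and 6 were on slide 1, both of sets 2 and 8 were on slide 2, and the twins of sets 1, 4, 5 and 7 were on different slides.

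The probe sequences are shown because they set what each signal can say. The 2 probes of each gene were 60 bases long and shared 59 of them, shifted by 1 base, so they are near-repeats of 1 measurement and not independent evidence. Sequences run 5′ to 3′, and letters in capitals mark the end base that the partner probe lacks. For IGFBP2 only the last 30 bases are given, so the first base of the probe starting at 1307, the one its partner lacks, is not shown and that line has no capital.

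IGFBP2, start 1307: gcttaagattaaaggaaggaaaaataaaaa

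IGFBP2, start 1308: cttaagattaaaggaaggaaaaataaaaaA

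IGFBP5, start 305: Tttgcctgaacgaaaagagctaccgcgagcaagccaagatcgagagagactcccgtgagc

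IGFBP5, start 306: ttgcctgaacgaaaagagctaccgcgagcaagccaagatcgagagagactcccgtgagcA

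The IGFBP2 probes were rich in A and T, with a G+C content of 26.7%, below the 5th percentile of all probes on the array (35%). Their longest run of A was 5 bases in the probe at 1307 and 6 in the probe at 1308, whose extra base lengthens that run. The IGFBP5 probes had a G+C content of 55%, against an array median of 43.3%. The longest stretch that any of the 4 probes shared with a probe of another name or of no name was 13 bases. The files place none of the probes on a chromosome. In RefSeq's gene table for the sheep assembly ARS-UI_Ramb_v3.0, IGFBP2 and IGFBP5 are neighbours with 0 genes between them. All 4 probes were well above background on 16 of 16 arrays.

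IGFBP2, the carrier known as abundant in fetal tissue, had a lower normalized level in every losartan fetus than in every untreated twin of that arm. At the probe at 1307, which had the higher mean of the pair and represents the gene below, the processed signal in twin sets 1 to 4 was 4206, 5556, 5751 and 7048 units in the untreated fetuses. In their losartan twins it was 3911, 2762, 2683 and 3097 units. At this probe the signals of the groups do not overlap, although set 1 differs little before the arrays are scaled.

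After scaling, the normalized log2 level of IGFBP2 at this probe was 1.93, 1.93, 2.01 and 2.31 in the untreated fetuses of sets 1 to 4, a mean of 2.04 ± 0.18 (SD, n = 4). In the losartan fetuses it was 1.23, 1.24, 1.20 and 1.23, a mean of 1.22 ± 0.018 (SD, n = 4). The 4 losartan fetuses thus lay within a narrow band, and the untreated fetus with the highest level, in set 4, had the largest difference to its twin. The log2 twin ratios, losartan minus untreated, were -0.71, -0.69, -0.81 and -1.08, a mean of -0.82 ± 0.18 (SD, n = 4), or 1.77-fold lower (95% interval of the log2 change -1.14 to -0.50). Over all probes 1.2% passed with losartan in either direction and 0.993% as lower, 11.1% were lower in 4 of 4 sets and 4.08% were lower with groups that do not overlap. These shares only place the choice of IGFBP2 and carry no support for it.

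The partner probe of IGFBP2, at 1308, was also lower in 4 of 4 losartan fetuses, after scaling, with more spread. Before scaling, its signal in sets 1 to 4 was 4042, 4892, 6353 and 6652 units in the untreated fetuses and 4372, 2694, 3098 and 2069 units in their losartan twins, so set 1 ran the other way and the groups overlapped. Its normalized log2 level was 1.88, 1.74, 2.15 and 2.23 in the untreated fetuses of sets 1 to 4 and 1.39, 1.20, 1.41 and 0.65 in their losartan twins. The narrow band of the losartan fetuses at the probe at 1307 was therefore not seen here, where set 4 was the low one. The twin ratios were -0.49, -0.54, -0.75 and -1.58, a mean of -0.84 ± 0.50 (SD, n = 4), and the adjusted p in the fit over all probes was 0.127 (limma). In the losartan fetus of set 4 the probes were 0.58 apart on the log2 scale, the widest gap over the 16 arrays, where they correlated at r = 0.935. The call on IGFBP2 with losartan thus rested on 1 of its 2 nearly identical probes, while the mean change was alike in both.

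**Figure D1:**
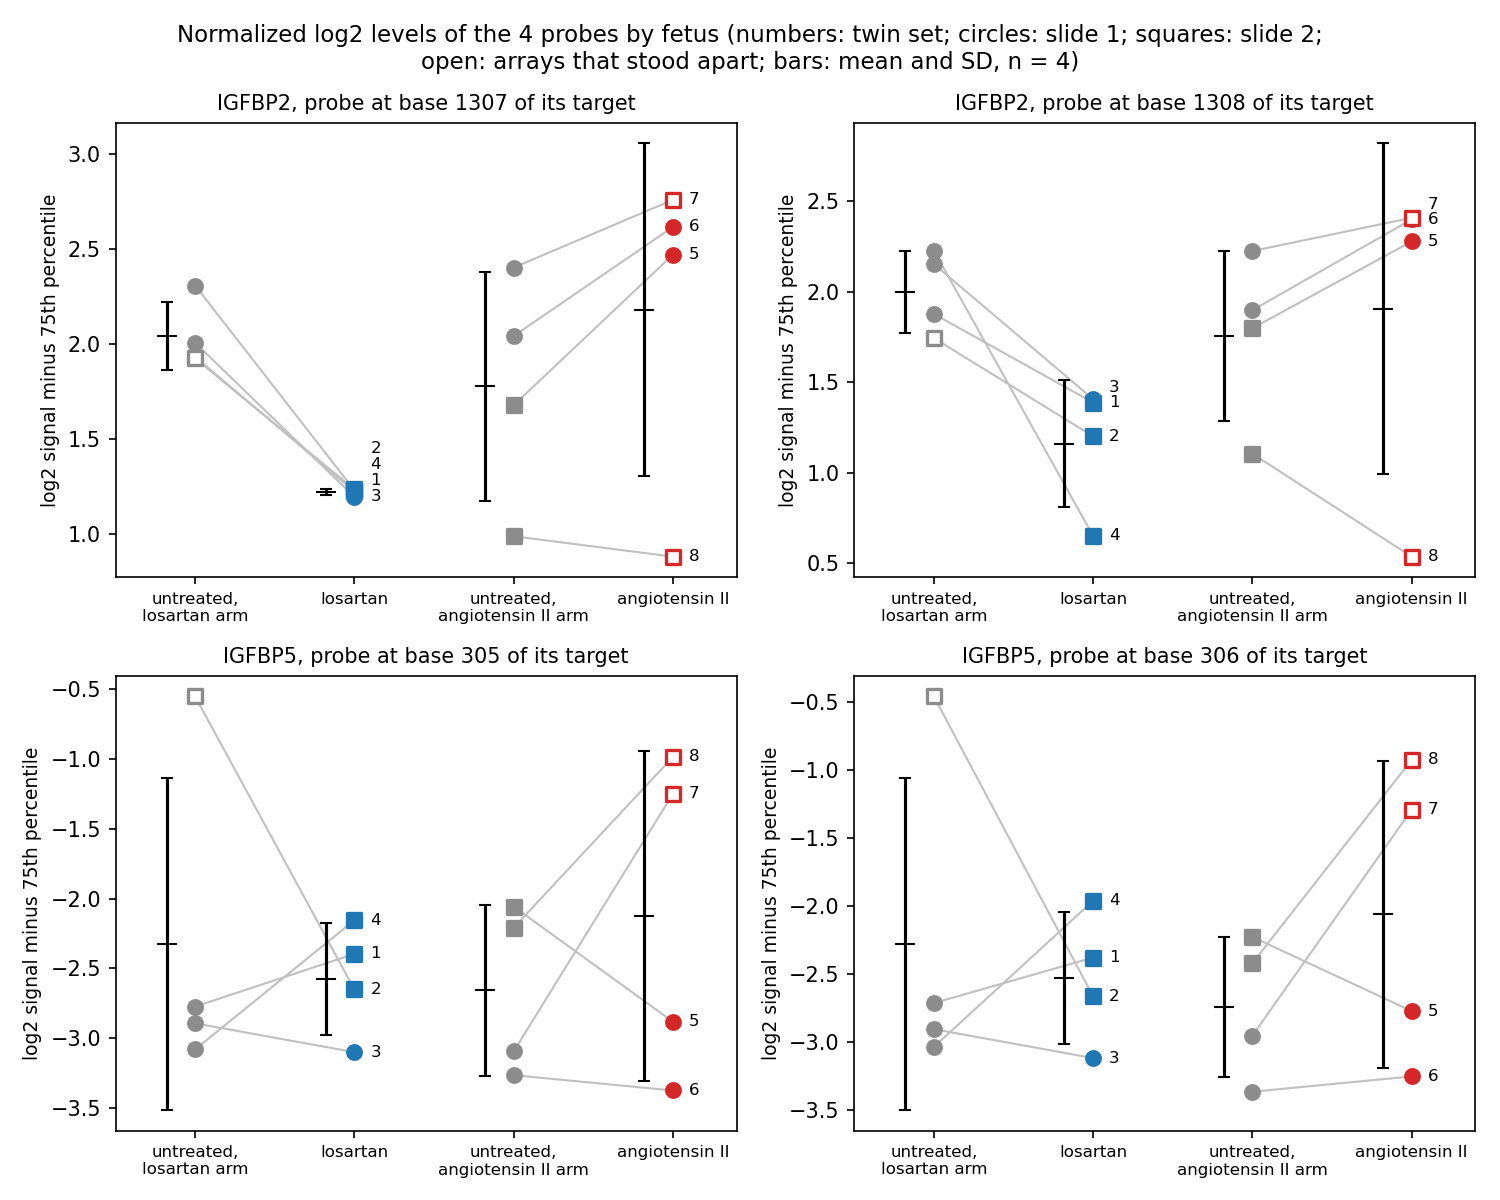
Normalized log2 levels (vertical axis, log2 signal minus the array's 75th percentile) of each probe in the 4 groups, 1 point per fetus, with lines joining twins, numbers giving the twin set, circles for slide 1, squares for slide 2, open symbols for the 3 arrays that stood apart, and bars for mean and SD (n = 4). The losartan fetuses lie at 1.20 to 1.24 for the IGFBP2 probe at 1307, and the 3 open symbols are the highest IGFBP5 levels.

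With angiotensin II the level of IGFBP2 was higher than in the untreated twin in 3 of 4 sets and did not pass the test. At the probe at 1307 the processed signal in sets 5 to 8 was 4578, 6309, 8339 and 2476 units in the untreated fetuses and 7283, 9385, 11157 and 2488 units in their angiotensin II twins. The corresponding normalized log2 levels were 1.68, 2.04, 2.40 and 0.99 without treatment, and 2.47, 2.62, 2.76 and 0.88 with angiotensin II. At this probe both fetuses of set 8 were low, below every losartan fetus, and the groups overlap. At the probe at 1308 this held for the angiotensin II fetus of set 8 (0.54). Its untreated twin (1.10) lay above the losartan fetus of set 4 (0.65) there.

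The log2 twin ratios of IGFBP2 with angiotensin II were 0.79, 0.57, 0.36 and -0.11, a mean of 0.40 ± 0.38 (SD, n = 4). The fitted change was 0.40 (SE 0.14, 95% interval 0.08 to 0.73), or 1.32-fold higher, with an adjusted p of 0.460 (limma). The fit pools the spread of both arms. Its SE, interval and p thus also draw on the losartan ratios by which IGFBP2 was chosen (SD 0.18). The interval therefore does not stand as a result of the angiotensin II sets alone. An exact two-sided sign-flip permutation test over the 4 sets gave p = 0.25, where 4 sets cannot go below 0.125. Of 8966 probes tested none passed with angiotensin II (0%), and 936 had an unadjusted p under 0.05 in limma. At the probe at 1308 the ratios were 0.48, 0.50, 0.18 and -0.57, and the mean was 0.15 ± 0.50 (SD, n = 4; adjusted p = 0.766, limma). Under normexp background correction and in the authors' deposited value table the change of the probe at 1307 was 0.14 in each, and the fitted adjusted p ranged from 0.316 to 0.998 over the alternatives.

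IGFBP2 ratios were below 0 in 4 of 4 losartan sets and above 0 in 3 of 4 angiotensin II sets. The angiotensin II change minus the losartan change was 1.23 (SE 0.20) at the probe at 1307 and 0.99 (SE 0.30) at the probe at 1308. Over all probes 1.64% passed in this contrast, which contains the losartan values by which IGFBP2 was chosen. The change at the probe at 1307 was called in 9 of 22 alternatives with losartan and in 9 of 22 for the difference. Some of these alternatives leave the losartan estimate as it was by design, such as the filters or leaving out an angiotensin II set. The counts are therefore no measure of robustness.

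The 3 arrays that stood apart were left out together with their twins, which could not turn the direction of IGFBP2. Every losartan ratio was below 0, and the only angiotensin II ratio below 0, that of set 8, was among those left out. The values are therefore a description. Without twin sets 2, 7 and 8 the mean ratio was -0.86 with losartan (3 sets, lower in 3) and 0.68 with angiotensin II (2 sets, higher in 2; adjusted p not under the threshold). The sets whose twins shared a slide had ratios of -0.69 (set 2) and -0.81 (set 3) with losartan, and of 0.57 (set 6) and -0.11 (set 8) with angiotensin II. Each slide held 1 such set of each arm, and set 2 includes an array that stood apart. The losartan change fitted within slide 1 was -0.89, from 1 losartan fetus against 3 untreated ones. Within slide 2 it was -0.69, from 3 losartan fetuses against 1 untreated one. Both fits had no twin term, and the lone fetus was assumed to vary like the others. Once slide was added to the twin terms, the losartan change was -0.73 (SE 0.16) and did not pass (adjusted p = 0.0809, limma). The authors' value table gave -0.53.

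IGFBP5, the carrier that binds to matrix, showed no such order by treatment, and the arrays that stood apart held its highest levels. At the probe at 306, which represents the gene below, the processed signal in sets 1 to 4 was 168, 1062, 191 and 173 units in the untreated fetuses and 321, 185, 135 and 339 units in their losartan twins. The untreated fetus of set 2 was the brightest of all 16. In sets 5 to 8 the signal was 305, 149, 204 and 233 units in the untreated fetuses and 192, 160, 672 and 710 units in their angiotensin II twins. The angiotensin II fetuses of sets 7 and 8 were the next brightest, and the other 13 arrays lay between 135 and 339 units.

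The normalized log2 level of IGFBP5 averaged -2.28 ± 1.22 in the untreated twins of the losartan arm and -2.53 ± 0.49 with losartan (SD, n = 4 each). It averaged -2.74 ± 0.52 in the untreated twins of the angiotensin II arm and -2.06 ± 1.13 with angiotensin II (SD, n = 4 each). The groups overlap in both arms. The log2 twin ratios were 0.33, -2.20, -0.21 and 1.07 with losartan and -0.54, 0.11, 1.66 and 1.49 with angiotensin II. The ratios farthest from 0 were thus those of sets 2, 7 and 8.

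The fitted change of IGFBP5 was -0.25 with losartan (SE 0.50, 95% interval -1.37 to 0.86). With angiotensin II it was 0.68 (SE 0.50, 95% interval -0.44 to 1.80; adjusted p = 0.575, limma; higher in 3 of 4 sets), and the exact two-sided sign-flip permutation test gave p = 0.375. Both intervals hold falls and rises. Without sets 2, 7 and 8 both directions turned, to 0.40 with losartan (3 sets) and -0.22 with angiotensin II (2 sets). The partner probe at 305 followed closely, at r = 0.992 over 16 arrays, with ratios of 0.38, -2.10, -0.21 and 0.93 with losartan and of -0.82, -0.11, 1.85 and 1.22 with angiotensin II.

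IGFBP5 levels also divided the arrays by slide. At the probe at 306 the 8 arrays of slide 1 lay between -3.36 and -2.71 (median -2.99), and the 8 arrays of slide 2 lay between -2.66 and -0.46 (median -2.09), with no overlap. The probe at 305 gave -3.37 to -2.77 on slide 1 and -2.65 to -0.55 on slide 2. Over all probes 1.02% were higher on every array of slide 2 than on any array of slide 1. Because the slides do not overlap, the twin on slide 2 had to have the higher IGFBP5 level in sets 1, 4, 5 and 7, whose twins were on different slides. These sets thus add nothing to the split. The twin on slide 2 was the treated one in sets 1, 4 and 7 and the untreated one in set 5. In the sets within slide 1 the ratios were -0.21 with losartan (set 3) and 0.11 with angiotensin II (set 6), and in those within slide 2, each of which holds an array that stood apart, they were -2.20 (set 2) and 1.49 (set 8). The part of the slide in the IGFBP5 ratios was not tested beyond the fits with blocks. With slide as a block the changes were -0.94 with losartan and 0.68 with angiotensin II, and with slide and array row they were -0.69 and 0.12. IGFBP2 levels at the probe at 1307 overlapped between slides, at 1.20 to 2.62 on slide 1 (median 2.18) and 0.88 to 2.76 on slide 2 (median 1.23). The mean on slide 2, which held 3 of the 4 losartan arrays, was the lower one, with a log2 difference (slide 2 minus slide 1) of -0.63 at this probe and -0.70 at the probe at 1308.

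**Figure D2:**
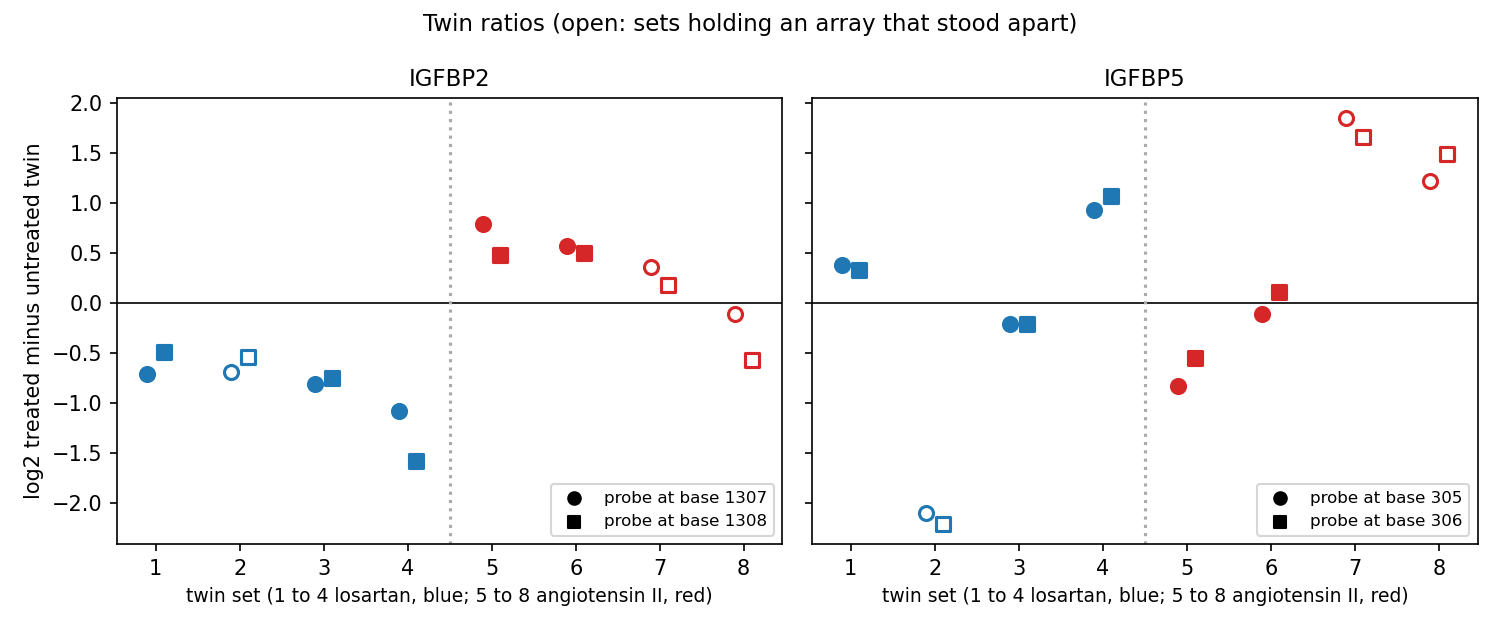
Log2 ratio of treated to untreated twin (vertical axis) for each twin set (horizontal axis), with circles and squares for the probes of each gene, blue for losartan, red for angiotensin II and open symbols for the sets that hold an array that stood apart. IGFBP2 ratios are below 0 in sets 1 to 4, and the IGFBP5 ratios farthest from 0 are those of sets 2, 7 and 8.

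The genes did not move together. The IGFBP2 ratio minus the IGFBP5 ratio was -1.04, 1.51, -0.60 and -2.15 in sets 1 to 4 and 1.34, 0.46, -1.30 and -1.60 in sets 5 to 8. It averaged -0.57 ± 1.53 with losartan and -0.28 ± 1.41 with angiotensin II (SD, n = 4 each), so the mean difference between the genes was smaller than its spread in both arms. In sets 2, 3, 6 and 7 the ratios of the genes had the same sign, and in the other 4 they had opposite signs.

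Among the 8 untreated fetuses IGFBP2 levels ran from 0.99 to 2.40 and IGFBP5 levels from -3.36 to -0.46. The untreated twins of sets 1 to 4 are part of the losartan ratios by which IGFBP2 was chosen, so its values here are a description. The untreated fetuses of sets 5 to 8 minus those of sets 1 to 4 gave -0.26 (SE 0.27) for IGFBP2, and leaving out 1 fetus at a time moved this from -0.47 (without set 7) to -0.0019 (without set 8). For IGFBP5 the difference was -0.46 (SE 0.53, adjusted p = 1.00, limma), and without the untreated twin of set 2 it turned to 0.14. No probe passed in that comparison (0%; 300 of 8966 had an unadjusted p under 0.05 in limma).

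The levels of the genes over these 8 fetuses gave Pearson r = -0.25 and Spearman rho = -0.81, as a description. Without the untreated twin of set 2, whose array stood apart, r was -0.68 and rho was -0.82. Without the fetuses of sets 7 and 8, farthest from the IGFBP2 median, r was -0.40 and rho was -0.89. Within slide 1 (5 fetuses) r was -0.15 and rho was -0.60, and within slide 2 (3 fetuses) r was 0.76 and rho was 1. Both values were thus below 0 on slide 1 and above 0 on slide 2, which held the untreated twin of set 2. Each slide held too few fetuses for a test, so no order within a slide is claimed.

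Fitted changes of both genes were recomputed under 22 alternative settings. IGFBP2 stayed below 0 with losartan (-0.89 to -0.53) and above 0 with angiotensin II (0.14 to 0.77) in all 22. Not every setting could move these estimates. The filters, the fit with no twin terms and leaving out a single set of the other arm left them at -0.82 and 0.40. IGFBP5 ran from -1.87 to 0.40 with losartan and from -0.27 to 1.21 with angiotensin II. The outermost IGFBP5 values, -1.87 and 1.21, came from the fit within slide 2, where the only untreated fetus of the losartan arm was that of set 2, whose array stood apart.

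**Figure D3:**
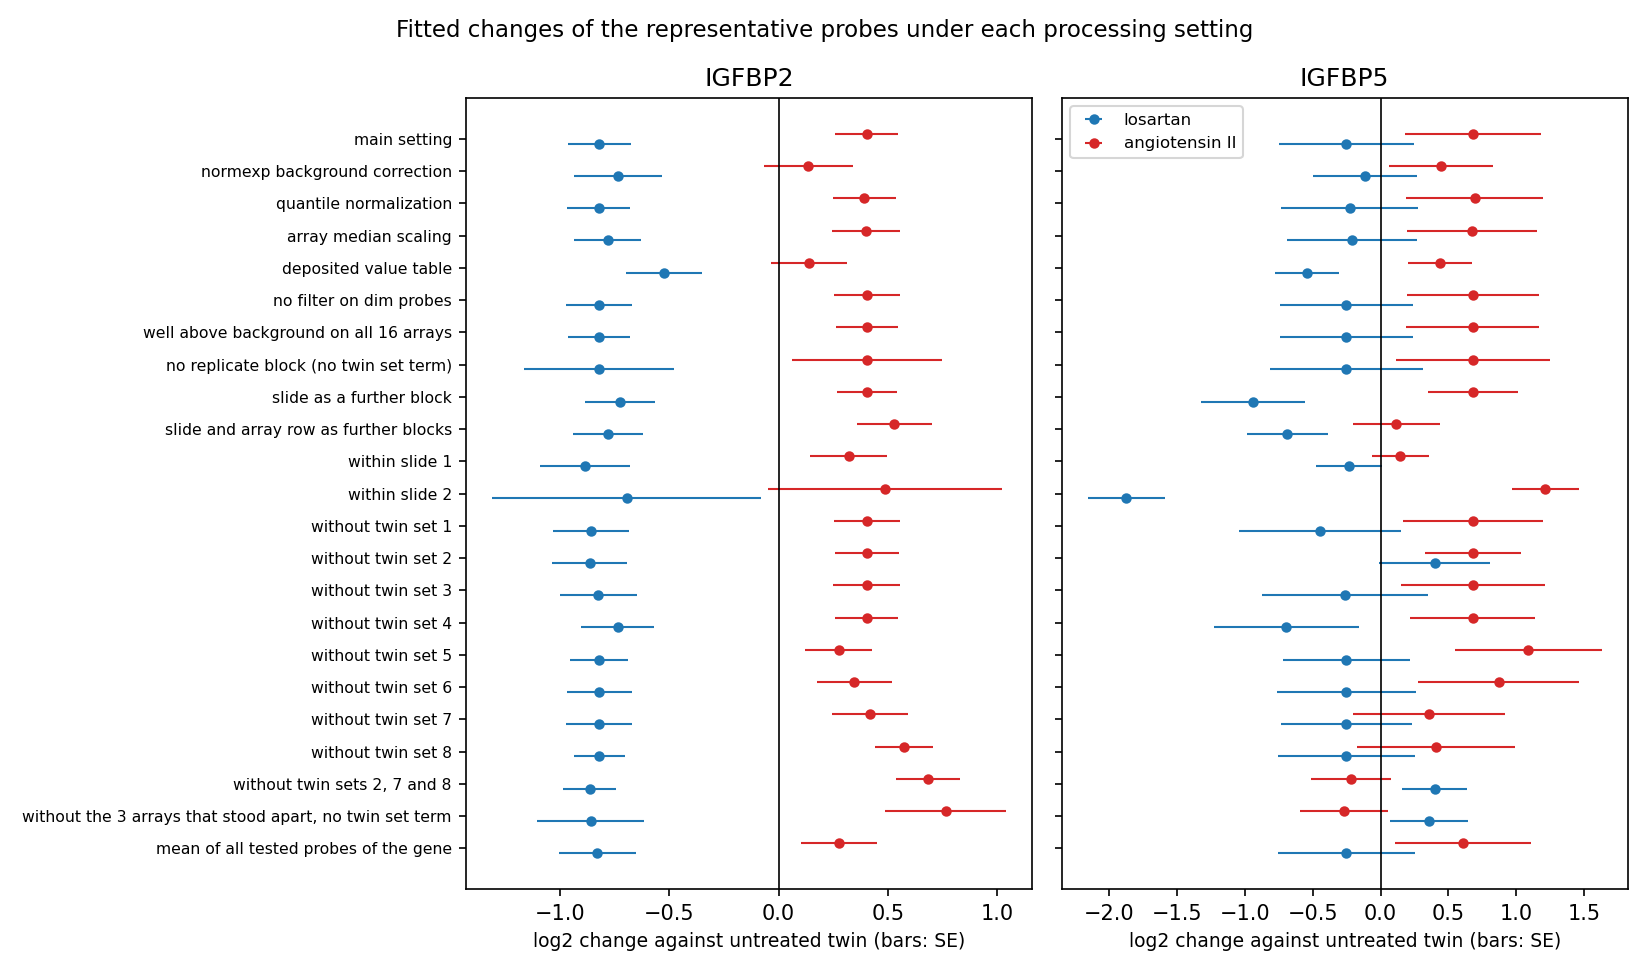
Fitted log2 change against the untreated twin (horizontal axis, bars are SE) of the representative probes at 1307 and 306 under the main setting and each alternative (vertical axis), blue for losartan and red for angiotensin II. IGFBP2 stays on its side of 0 in both arms, and IGFBP5 changes side without sets 2, 7 and 8.

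The other genes of the insulin-like growth factor system gave no call with either treatment. Of the ligands and receptors 3 of 6 listed genes were tested, and 0 passed in either direction with either treatment. IGF2, the main fetal ligand, was very bright, at 86760 to 136640 units at its representative probe, with changes of -0.18 with losartan and -0.13 with angiotensin II (adjusted p = 0.529 and 0.600, limma). Its other probe, at 962 to 6010 units, gave -0.61 and 0.47 (adjusted p = 0.443 and 0.520, limma), so the probes of IGF2 gave opposite signs in the angiotensin II arm.

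IGF1R, the receptor that carries the growth signal, had changes of -0.56 with losartan and 0.66 with angiotensin II (adjusted p = 0.494 and 0.478, limma). Its ratios were -1.37 in set 2, 1.31 in set 7 and 1.54 in set 8, and between -0.35 and -0.06 in the other 5 sets. The sets with an array that stood apart thus held the ratios farthest from 0. With losartan the ratio was below 0 in 4 of 4 sets, as in 11.1% of all probes. With angiotensin II only sets 7 and 8 were above 0. Its other tested probe gave -0.30 and 0.40 (SE 0.11 each, adjusted p = 0.273 and 0.451, limma). IGF2R, which clears IGF2, had changes of 0.18 and -0.15. IGF1, the other ligand, was well above background on 3 of 16 arrays and INSR, the insulin receptor, on 0, and neither was tested.

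Of the other binding proteins 2 of 6 listed genes were tested and 0 passed. IGFBP4, a carrier that mostly restrains the growth factors, had normalized log2 levels averaging 2.85 ± 0.33 and 2.80 ± 0.22 in the untreated and losartan fetuses, and 2.89 ± 0.24 and 2.67 ± 0.38 in the untreated and angiotensin II fetuses (SD, n = 4 each). Its changes were -0.05 with losartan and -0.22 with angiotensin II (lower in 4 of 4 sets, adjusted p = 0.520, limma; 11% of all probes were lower in 4 of 4). IGFBP6, which prefers IGF2, had changes of -0.27 and 0.29 (adjusted p = 0.599 and 0.533, limma), with ratios of -0.85 in set 2, 0.60 in set 7 and 0.72 in set 8 and of -0.25 to 0.05 in the others. IGFBP1 and IGFBP3 were well above background on 0 of 16 arrays.

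Of the proteases that cut these carriers and their regulators 3 of 15 listed genes were tested. TIMP1, an inhibitor of matrix metalloproteinases, was lower in 4 of 4 losartan sets, as were 11.1% of all probes (-0.45, SE 0.09, adjusted p = 0.0512, limma). It was higher in 4 of 4 angiotensin II sets, as were 7.79% of all probes (0.19, SE 0.09, adjusted p = 0.482, limma). The difference of its changes was 0.65 and passed (adjusted p = 0.0437, limma; 1.64% of probes did). MMP2, a gelatinase, had changes of -0.08 and 0.18, and CTSD, the lysosomal protease cathepsin D, of -0.08 and 0.22. PAPPA, which cuts IGFBP4, and MMP1, MMP9 and PLAU were well above background on 0 arrays.

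Downstream of the receptor 2 of 24 listed genes were tested. AKT1, a kinase of the growth signal, had changes of -0.35 with losartan (adjusted p = 0.404, limma) and 0.25 with angiotensin II. It was lower in 4 of 4 losartan sets, as were 11.1% of all probes. MTOR, a kinase of the same pathway, had changes of 0.03 and 0.02. Of the growth hormone axis 1 of 8 was tested, the receptor GHR, with changes of -0.01 and 0.09. Of the binding partners of the carriers 4 of 14 were tested, and 0 passed. The intermediate filament gene VIM had changes of -0.47 and -0.02 (adjusted p = 0.109 with losartan, limma), the iron carrier TF of -0.40 and 0.02, and the integrin chains ITGB1 and ITGAV of 0.08 and 0.03 with losartan and -0.13 and 0.26 with angiotensin II. The median change of the ligand and receptor list was -0.18 with losartan and -0.13 with angiotensin II, against 0.01 and -0.03 over all probes.

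**Figure D4:**
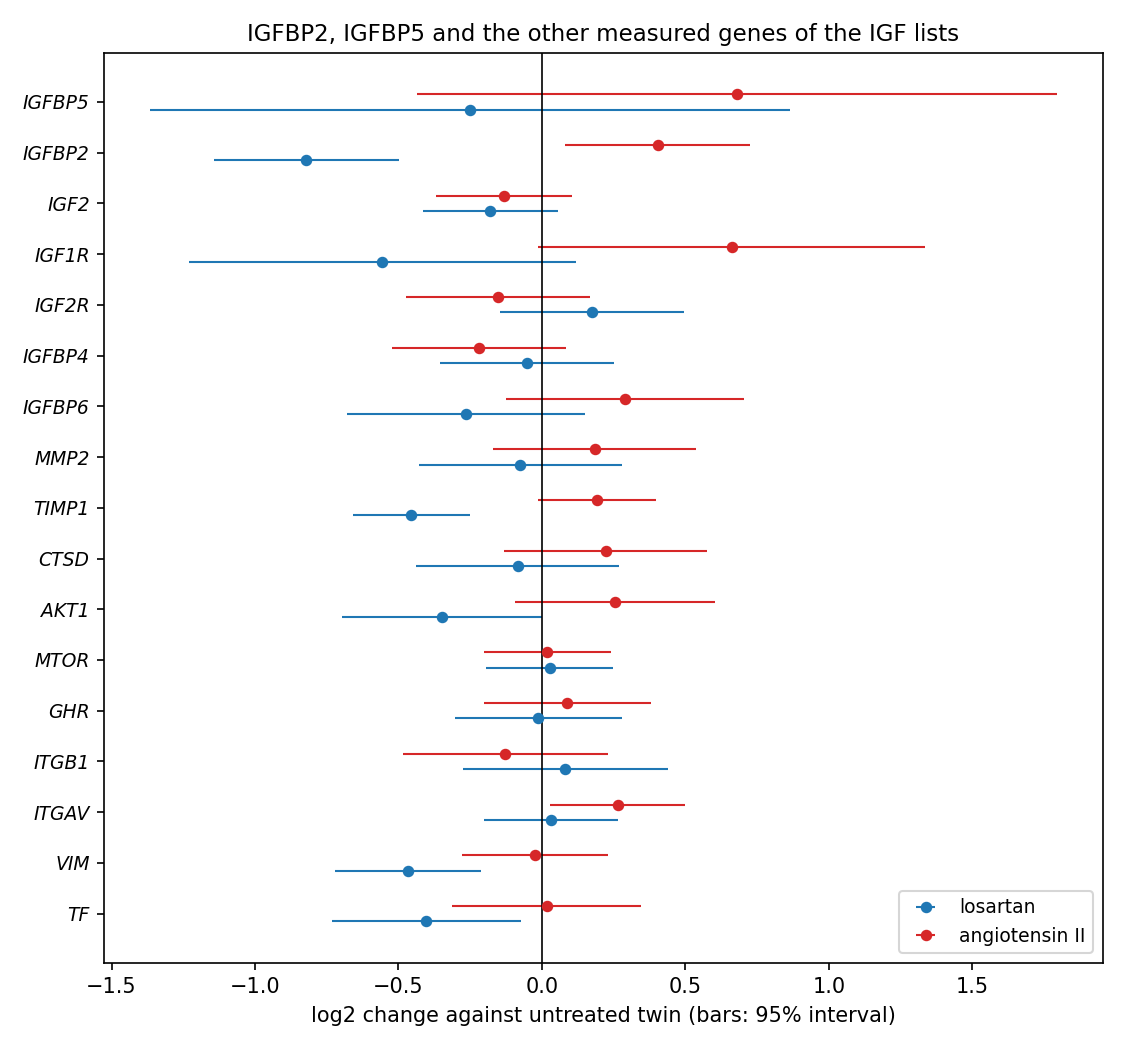
Fitted log2 change against the untreated twin (horizontal axis, bars are 95% intervals) for IGFBP5, IGFBP2 and the other tested genes of the 6 lists (vertical axis), blue for losartan and red for angiotensin II. The interval of IGFBP5 is the widest at -1.37 to 0.86 with losartan. IGFBP2, which was chosen on its losartan values, has the lowest losartan change at -0.82.

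Genes whose twin ratios were most like those of IGFBP2 were sought among 448 named genes over the 8 twin sets. The 5 with the highest Pearson r were DNMT1, a maintenance DNA methyltransferase (0.96), SNAI2, a repressor of epithelial genes (0.93), CDK1, the kinase of mitotic entry (0.92), INHBA, the activin A subunit (0.92), and the cotransporter SLC12A4 (0.90). Over the 16 arrays, r with IGFBP2 was 0.91, 0.72, 0.86, 0.72 and 0.32 for these genes in turn. The most opposed were the transcription factor MYC (-0.96), the growth factor FGF1 (-0.95) and PLIN5, a lipid droplet protein (-0.91). The median gene had r = 0.14, and 27 of 448 were above 0.8. Ratios of all genes share the arrays and the treatment groups, so these values describe likeness in these 8 sets only.

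The 5 genes most like IGFBP5 were ATP5PD, a subunit of ATP synthase (0.98), the ribosomal protein gene RPS26 (0.96), LOC100147796 (0.95), HK1, a hexokinase (0.94), and the chemokine gene CXCL1 (0.94). The most opposed were TRIP4, a transcriptional coactivator (-0.96), the integrin gene ITGB1 (-0.95) and the ribosomal protein gene RPL14 (-0.92). Here 54 of 448 genes were above 0.8. Without sets 2, 7 and 8, r was 0.94 for ATP5PD and 0.66 for HK1. IGFBP2 ranked 273rd of 448 by likeness to IGFBP5 (r = 0.12 over the 8 ratios). The sign of this r turned without sets 2, 7 and 8 (-0.66), and r between the levels over the 16 arrays was -0.22. The lists of most like genes share no gene.

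Of the cell type markers, 2 smooth muscle genes passed as lower with losartan, as 0.993% of all probes did. None of the other 7 lists had a call. Of 6 smooth muscle genes listed 3 were tested (CNN1, MYL9 and MYLK), all with estimates below 0 with losartan. CNN1 changed by -1.42 and MYL9 by -1.06 (adjusted p = 0.0248 and 0.0085, limma). MYLK changed by -0.36 (adjusted p = 0.798, limma), with a ratio of 1.75 in set 1. The summed level of the 3 genes hides this difference. In multiples of the array's 75th percentile, this sum was 13.4 to 20.3 in the losartan fetuses against 30.1 to 43.6 in their untreated twins. It was 52.2 to 76.1 with angiotensin II against 29.3 to 43.4. None of the 3 genes passed with angiotensin II. CNN1 and MYL9 were higher in 4 of 4 sets, as were 7.79% of all probes (adjusted p = 0.446 and 0.425, limma). MYLK went the other way, at -0.20 and lower in 3 of 4 sets (adjusted p = 0.862, limma). Of 9 fibroblast and matrix genes 5 were tested, which include VIM, and 0 passed. Their summed level was 103 to 132 with losartan against 145 to 173, and 103 to 166 with angiotensin II against 109 to 155. Of all single probes 4.08% were lower with losartan with groups that do not overlap. All 5 estimates were below 0 with losartan, but the sum hides that the genes differed. COL1A1 was higher in 3 of 4 losartan sets, and COL3A1 and DCN were each higher in 1. The cardiomyocyte genes tested, MB and TPM1, of 13 listed, were well above background on 16 of 16 arrays and overlapped between losartan (131 to 151) and untreated fetuses (131 to 155). The endothelial genes tested (2 of 5) summed to 3.07 to 3.94 with losartan against 3.20 to 4.13. CD14, the leukocyte gene tested of 8 listed, was at 0.086 to 0.14 against 0.081 to 0.11. HBB, of 4 erythroid genes, was at 3.12 to 25.8 against 0.67 to 9.67. TNNC2, of 5 skeletal muscle genes, was at 0.18 to 0.27 against 0.20 to 3.60. APOA1, of 4 liver genes, was at 0.26 to 0.48 against 0.52 to 1.40 and did not pass (adjusted p = 0.124, limma). Its groups do not overlap, as in 4.08% of all probes that were lower. TEK, ITGAM, CD4, MYOD1 and TTR were well above background on 0 arrays. The part of these markers in the IGFBP2 difference was not tested.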

How the data were processed

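Total RNA from 16 left ventricles was labelled with Cy5 and hybridized to an Agilent sheep array. The deposited scanner files hold spot intensity in fluorescence units, background-subtracted and detrended by Agilent Feature Extraction 10.7.3.1 and left unscaled between arrays, per the file headers. The authors' deposited value table is on a natural log scale: each column followed the natural log of mean spot signal at r = 0.9978 or more, as tested here on the files, with column medians of 5.755 to 5.768; how it was normalized is not stated in the labels or headers used, and it entered only an alternative fit.

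Outlier and control spots were left out, spots of a probe were averaged, and log2 processed signals were scaled to the 75th percentile of each array. No spot of a probe was saturated. Tests were run on the 8966 of 15008 probes that exceeded background clearly on all arrays of some group. limma 3.58.1 (R 4.3.3) was fitted to all 16 arrays with a fixed term for each of the 8 twin sets (6 residual degrees of freedom). Tests were two-sided, p-values were Benjamini-Hochberg adjusted over all tested probes, and 0.05 was the threshold. Untreated arms were compared over 8 arrays without twin terms. The fit was tested on simulated data. Other values came from Python 3.11.15 with scipy 1.17.1 and pandas 2.3.3, and figures from matplotlib 3.10.9.

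The labels give the twin sets, which pair the fetuses. Deviations of twins from their group means correlated at -0.04 to 0.53. The replicate numbers in the titles do not follow the twin sets and were not used. The array's number limits the precision: 4 fetuses a group.

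Of the probes 1408 carried a gene name (871 genes) through the files or the reference gene table, and 13600 had none. A gene is represented by its tested probe with the highest mean. Named genes are both members with every probe, every tested gene of 6 lists on the growth factor system, and the 5 most and 3 least like genes of each member by r over the 8 twin ratios. The members and lists were chosen with earlier results of these data known. Alternatives were background correction, normalization, the value table, the filter, the twin, slide and row terms, fits within a slide, leaving out each twin set, sets 2, 7 and 8 or the 3 arrays, and averaging a gene's probes.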

Additional observations from a re-analysis of the deposited data

Results flagged for a closer look

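In groups of 4 fetuses, a lone value was marked where its gap to the nearest other value was large against the group's range (Dixon's criterion), which chance gives in about 1 in 20 groups. Of 24 groups of levels or ratios tested, 4 had such a value. IGFBP2 was low in the angiotensin II fetus of set 8, at 0.88 for the probe at 1307 and 0.54 for the probe at 1308. The other 3 angiotensin II fetuses lay at 2.28 or above. The array of the set 8 fetus was among the 3 that stood apart. Its untreated twin, whose array did not stand apart, was also the lowest of its group, at 0.99 and 1.10. IGFBP5 was high in the untreated fetus of set 2, at -0.46 for the probe at 306 and -0.55 for the probe at 305, where the other 3 lay at -2.71 or below; that array was among the 3 that stood apart. The probes of a gene are near-repeats, so these are 2 events.

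The change of IGFBP2 at the probe at 1307 differed between the treatments by 1.23 (angiotensin II minus losartan, adjusted p = 0.0212, limma). The contrast holds the losartan values by which the gene was chosen, and at the probe at 1308 the adjusted p was 0.135.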

How the results depend on the processing

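The number of arrays limits all of these values. IGFBP2 with losartan (-0.82) kept its direction and did not pass in 13 of 22 alternatives: -0.74 under normexp background correction, -0.53 in the authors' value table, -0.82 with no replicate block (no twin set term, so the paired design was ignored), -0.73 with slide and -0.78 with slide and row as blocks, -0.89 and -0.69 within slides 1 and 2, -0.86 without the 3 arrays that stood apart and -0.83 for the mean of both probes. The fit without the 3 arrays also had no twin set term. Without sets 2, 7 and 8, with twin terms kept, the change was -0.86 and the call was kept. Leaving out each twin set gave -0.86 to -0.74, and the call was lost without set 1, 2, 3 or 4. The difference of its changes (1.23) did not pass at 0.87, 0.66 and 1.23 under normexp, the value table and no replicate block, at 1.31 with slide and row, at 1.21 and 1.18 within slides 1 and 2, at 1.63 without the 3 arrays and at 1.11 for the mean of both probes. Leaving out each set gave 1.10 to 1.40, with the call lost without set 1, 3, 4, 6 or 7. IGFBP2 with angiotensin II passed in no alternative.

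IGFBP5 reversed without sets 2, 7 and 8 (0.40 with losartan, -0.22 with angiotensin II, -0.61 for the difference) and without the 3 arrays (0.35, -0.27 and -0.63). Leaving out each set gave -0.69 to 0.40 with losartan, reversed without set 2, 0.35 to 1.09 with angiotensin II and 0.28 to 1.37 for the difference. Within slide 2 it passed at -1.87, 1.21 and 3.09. In the untreated arms, leaving out each fetus gave -0.71 to 0.14, reversed without set 2 (0.14).

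The 108 probes called with losartan became 433 in the value table, 57 with the stricter filter, 0 with no replicate block, 71 with slide as a block, 41 and 548 within slides 1 and 2, 33 to 99 without each set and 0 without the 3 arrays. The 0 called with angiotensin II became 353 within slide 2 and 1 without sets 2, 7 and 8. The 147 called for the difference became 1732, 3 and 426 in the value table, with no replicate block and with slide as a block, 38 and 1881 within slides 1 and 2, 48 to 111 without each set, 74 without sets 2, 7 and 8 and 4 without the 3 arrays. In the untreated arms 0 to 1 passed without each fetus. Within-slide fits and all fits without the 3 arrays had no twin term. Lone arrays in the within-slide fits were assumed to vary like the others. The cause of these changes was not tested.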
